A study of Mus musculus with 2 samples.

Results

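Complex I, the NADH:ubiquinone oxidoreductase of the inner mitochondrial membrane, is described here through the open chromatin at the nuclear genes needed to build it. The genes were chosen by their Gene Ontology (GO) terms: those that carried the term for mitochondrial respiratory chain complex I assembly in the peak table, whatever their read counts. There were 46 such genes among 28944 genes in the table, and they held 79 of 83549 peaks. GO terms could be searched for 13687 genes; the terms of 1784 others are not analysed here, so this list and the other GO lists below may be incomplete. The GO list was taken up with earlier results of these data known, so its counts and medians are descriptions and no test was run on them.

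Chromatin accessibility was measured by ATAC-seq: Tn5 transposase inserts adapters into open DNA, so reads pile up where nucleosomes leave it exposed. Hearts of mice aged 4 days were pooled into 1 library for each genotype. The control pool held 7 Wtapflox/flox mice, in which the Wtap gene is flanked by loxP sites. The other held 6 Wtap-CKO mice, in which Wtap was knocked out in cardiomyocytes only. The promoter that drove Cre is not given in the sources used here. The Wtap product belongs to the m6A writer, the enzyme complex that methylates adenosines in RNA, and heart cells other than cardiomyocytes kept it in both pools. Reads in peaks numbered 9835753 in the control library and 9816384 in the knockout library. There is thus 1 library for each genotype and no replicate check, and each value below compares these 2 libraries. In whole hearts, a smaller share of cardiomyocyte nuclei and less open chromatin per nucleus cannot be told apart, and the cell types could not be checked against marker genes because the files do not pair gene IDs with symbols.

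Complex I takes electrons from NADH, passes them along a flavin and a chain of iron-sulfur clusters to ubiquinone, and pumps protons across the inner membrane. A hydrophilic arm in the matrix carries the redox centres and a membrane arm does the pumping. Assembly factors, which are not part of the finished enzyme, insert subunits, deliver cofactors and join the modules. The heart depends on this chain for most of its ATP, and cardiomyocyte mitochondria mature around birth. The peaks in the table were on nuclear chromosomes, so the subunits encoded in mitochondrial DNA are not analysed here. Of the 46 genes, 31 also carried the GO term for the complex itself and are called subunit genes. The other 15 carried only the assembly term and are called assembly genes. They lay on 18 chromosomes, with at most 6 on any of them (chromosome 7). Genes are identified by position on GRCm39 and by their GO terms.

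Open chromatin at these genes was concentrated at promoters. A promoter peak is one within 1000 bp of an annotated transcript start, and 43 of the 46 genes (93.5%) had at least 1. So did 84.0% of genes with GO terms and 1172 of 1264 other genes annotated to the mitochondrion. In all 43 a peak overlapped the start itself, as in 13291 of all 16298 genes with a promoter peak. The 44 peaks over a start were all called in both libraries by the authors, as were 88.9% of all peaks over a start. The authors marked 46 of the 50 promoter peaks in both genotypes, where 77.7% of all promoter peaks were. Another 3 were Wtap-CKO peaks alone (8.97% of all) and 1 a Wtapflox/flox peak alone (13.4% of all). A single peak was all that 27 of the 46 genes had (58.7%, against 38.2% of genes with GO terms). Promoters held 89.3% of the genes' Wtap-CKO reads and 88.98% of their Wtapflox/flox reads, where genes with GO terms had 60.6% and 62.5%. Only 16 of the 46 genes (34.8%) had a peak beyond 1000 bp, against 63.7% of genes with GO terms and 692 of 1264 other mitochondrial genes.

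The promoters were also more accessible for their length than those of all genes. The median was 395 reads per kb of promoter peak in Wtap-CKO and 393 in Wtapflox/flox over the 43 genes, and 288 and 295 over all 16298 genes with a promoter peak. Across the 43 genes this level ran from 175 to 929 reads per kb in Wtap-CKO and from 104 to 834 in Wtapflox/flox. In both libraries the lowest was a membrane subunit gene on the X chromosome. Peaks over the start had a median width of 697 bp, against 627 bp for all peaks over a start. In reads per promoter, whatever the length, the 43 genes were near other mitochondrial genes. The medians were 303 Wtap-CKO and 290 Wtapflox/flox reads for the 43, and 303 and 307 for 1172 other mitochondrial genes.

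**Figure D1:**
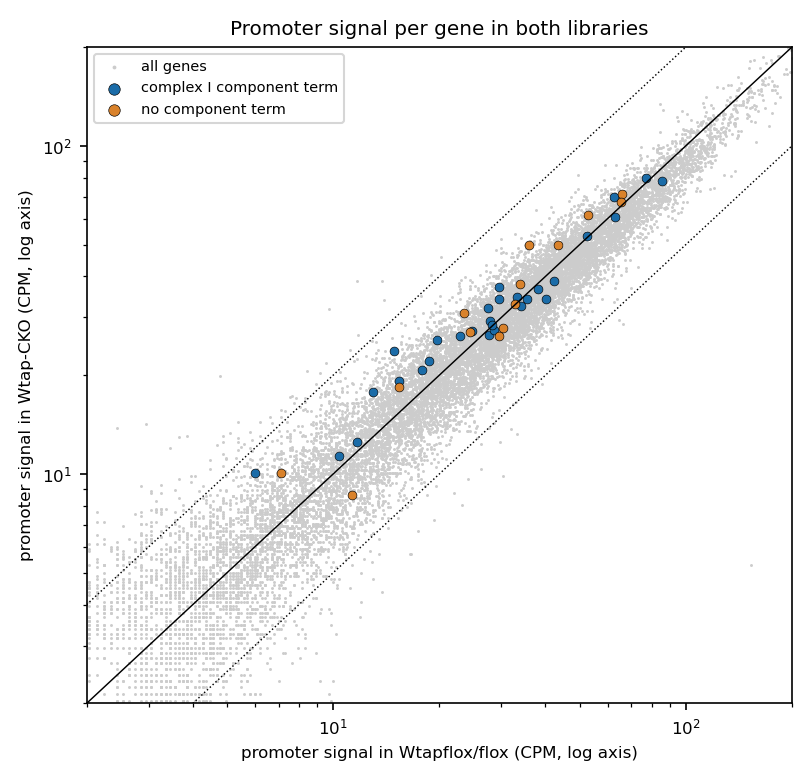
Promoter signal per gene in CPM (reads scaled by the total in all peaks of the library) in Wtapflox/flox (x axis) and Wtap-CKO (y axis), both on log axes drawn from 2 to 200 CPM, with 1 library per genotype. Grey points are all genes in that range, blue points the subunit genes and orange points the assembly genes; the solid line marks equal signal and the dotted lines a 2-fold difference, which none of the 43 genes reaches.

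Promoters of complex I genes were slightly more accessible in Wtap-CKO than in Wtapflox/flox relative to the reads in peaks, whereas the typical promoter was slightly less so. The log2 ratio (Wtap-CKO over Wtapflox/flox), taken on CPM after adding 0.5, had a median of 0.12 over the 43 genes (quartiles -0.05 and 0.23), or 1.09-fold, and -0.06 over all 16298 genes. It was above 0 for 31 of the 43 and above the median of all genes for 35. By the authors' RPM, which shifts promoter ratios by -0.22, the median of the 43 was -0.09 and that of all genes -0.27; 13 of the 43 were then above 0, and again 35 lay above the median of all genes. Summed over the 43 genes, the promoters held 14758 Wtap-CKO reads and 13867 Wtapflox/flox reads, which gave 0.09 on the log2 scale (95% counting interval 0.06 to 0.13). The gap between the medians of the list and of all genes was 0.18, and the SD among the 43 genes was 0.22.

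None of these promoters differed by 2-fold. Calls used a floor at 9.67 CPM (roughly 95.1 reads), the value that the weakest 25% of promoters fall under, which left 41 of the 43. Of these 41, 0 were at least 2-fold higher and 0 at least 2-fold lower, where 0.196% and 0.18% of all promoters over the floor were. At 1.5-fold 1 was higher and 0 lower, against 1.63% and 2.52%. The exact binomial counting interval lay above 0 for 11 of the 43 (25.6%) and below 0 for 1 (2.33%), against 13.5% and 23.5% of all genes with a promoter peak. The interval spanned 0 for the other 31. With the authors' RPM as the scaling this balance turned, to 3 intervals above 0 (6.98%) and 15 below (34.9%) among the 43, against 4.63% and 49.4% of all genes. Intervals cover counting error only, not the difference between pools or preparations, and they narrow with depth, which was higher here (median 303 reads in Wtap-CKO, against 220 for all genes).

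**Figure D2:**
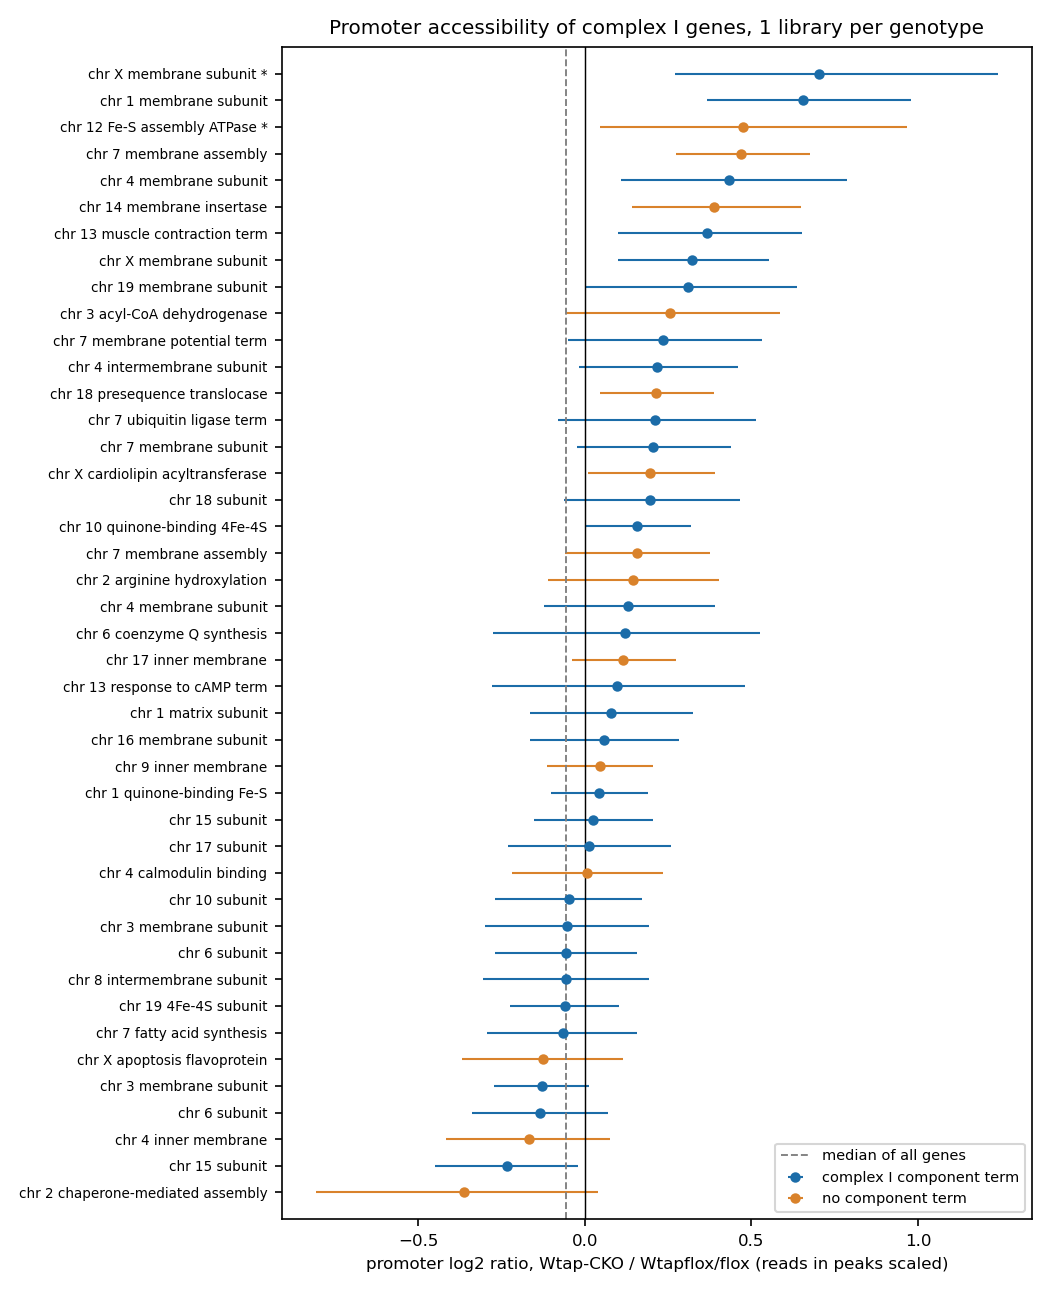
Promoter log2 ratio (Wtap-CKO over Wtapflox/flox) (x axis) for the 43 genes with a promoter peak, ordered by ratio and named by chromosome and a GO term, with 1 library per genotype. Points are the ratios of summed reads in peaks and bars their 95% counting intervals; the dashed line is the median of all genes (-0.06), an asterisk marks the 2 genes under the signal floor, and 31 points lie above 0 (13 by the authors' RPM).

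Among subunit genes, 6 of 29 (20.7%) had intervals above 0 and 1 (3.45%) below, against 13.5% and 23.5% of all genes with a promoter peak. By the authors' RPM there were 2 (6.90%) and 11 (37.9%), against 4.63% and 49.4%. Of the 6 above 0 by reads in peaks, 5 were annotated as integral to the membrane. The promoter with the highest ratio over the floor belonged to a membrane subunit gene on chromosome 1 (ENSMUSG00000026032, peak 58625041 to 58626048). It held 232 Wtap-CKO reads and 146 Wtapflox/flox reads, or 23.6 and 14.8 CPM. Its log2 ratio was 0.65 (interval 0.37 to 0.98), or 1.57-fold higher, and 0.45 in the authors' deposited table. It was the only one of the 41 past 1.5-fold, and the next ratio below it over the floor was 0.47. A membrane subunit gene on the X chromosome (36454617 to 36455181) had a ratio of 0.70 (interval 0.27 to 1.24), but from only 99 Wtap-CKO reads and 59 Wtapflox/flox reads, under the floor.

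The other subunit genes with intervals above 0 differed by less. A membrane subunit gene on chromosome 4 (75196197 to 75196766) had 174 Wtap-CKO reads and 128 Wtapflox/flox reads (log2 ratio 0.43, interval 0.11 to 0.79). A subunit gene on chromosome 13 (73476306 to 73476813), which also carries GO terms for muscle contraction and mitochondrion morphogenesis, had 251 and 194 reads (0.37, interval 0.10 to 0.65). The other X-linked membrane subunit gene (20483245 to 20484187) had 364 and 291 reads (0.32, interval 0.10 to 0.55). All 3 were higher in Wtap-CKO by less than 1.5-fold, and the authors' RPM put them at 0.23, 0.16 and 0.11. A membrane subunit gene on chromosome 19 (44543515 to 44544104) also had an interval that lay just above 0, with 188 and 151 reads (0.31).

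The 9 promoters annotated to electron transport from NADH to ubiquinone had a median of 0.13, from -0.23 to 0.37. Of their intervals, 2 lay above 0 and 1 below (22.2% and 11.1%), against 13.5% and 23.5% of all genes with a promoter peak. By the authors' RPM 0 lay above and 3 below (33.3%), against 4.63% and 49.4%. The 3 subunit genes with iron-sulfur clusters had ratios from -0.06 to 0.16. The quinone-binding iron-sulfur subunit gene on chromosome 1 had 782 Wtap-CKO reads and 760 Wtapflox/flox reads over 3 promoter peaks (log2 ratio 0.04, interval -0.10 to 0.19). The quinone-binding subunit gene on chromosome 10 with a 4Fe-4S cluster (80084735 to 80085470) had 684 and 614 reads (0.16). A 4Fe-4S subunit gene on chromosome 19 (3962449 to 3963222) had 594 and 621 (-0.06, interval -0.23 to 0.10). All 3 intervals included 0. The 12 subunit genes annotated to NADH dehydrogenase (ubiquinone) activity had a median of 0.07, from -0.13 to 0.31.

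At the low end, 1 subunit gene had an interval below 0. This was a gene on chromosome 15 (ENSMUSG00000022354, 58804934 to 58805852) annotated to electron transport from NADH to ubiquinone, with 334 Wtap-CKO reads and 394 Wtapflox/flox reads (log2 ratio -0.23, interval -0.45 to -0.02). The start of another gene of the table lies inside this peak, the only such case among the 44 peaks over a start (2.87% of all peaks over a start hold one), so its reads cannot be assigned to either gene. A membrane subunit gene on chromosome 3 (32790511 to 32791624) had the most promoter reads of all in Wtapflox/flox, 842, and 768 in Wtap-CKO (-0.13, interval -0.27 to 0.01). A subunit gene on chromosome 6 (24527349 to 24527873) had 379 and 417 (-0.13). Both of these intervals reached 0. Over all 29 subunit genes with a promoter peak the median was 0.10, and 20 were above 0.

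The assembly genes had a median of 0.15 over 14 promoters, 11 of them above 0. The counting interval lay above 0 for 5 (35.7%) and below 0 for 0, against 13.5% and 23.5% of all genes with a promoter peak. By the authors' RPM it lay above 0 for 1 (7.14%) and below for 4 (28.6%), against 4.63% and 49.4%. The highest assembly gene over the floor was a membrane protein gene on chromosome 7 (ENSMUSG00000030614, 90124995 to 90125756). It held 491 Wtap-CKO reads and 354 Wtapflox/flox reads (log2 ratio 0.47, interval 0.27 to 0.68; 0.26 in the authors' deposited table). The promoter peak of a second assembly gene, of the inner membrane, lay 18210 bp from it (90106160 to 90106784) and had 371 and 333 reads (0.16, interval -0.06 to 0.38). The membrane insertase gene on chromosome 14, whose product places proteins into the inner membrane from the matrix side, had 303 and 231 reads over 2 peaks (0.39, interval 0.14 to 0.65). Its peaks had similar ratios, 0.35 (54598113 to 54598884) and 0.49 (54605122 to 54605429). A gene on chromosome 18 of the presequence translocase, the channel for proteins bound for the matrix, had 602 and 519 reads (0.21, interval 0.05 to 0.39). These 4 genes were all higher in Wtap-CKO by reads in peaks; by the authors' RPM the inner membrane gene lay at -0.06 and the translocase gene at about 0.

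A gene on chromosome 12 (52144364 to 52144820) with ATPase and iron-sulfur cluster assembly terms had 99 Wtap-CKO reads and 70 Wtapflox/flox reads (log2 ratio 0.47, interval 0.05 to 0.97), under the floor. Assembly genes near equality were the calmodulin-binding gene on chromosome 4 (323 and 322 reads, 0.01) and an inner membrane gene on chromosome 9 (663 and 644 reads, 0.04). An inner membrane gene on chromosome 17 (57023834 to 57024885), among the 5 with the most reads, had 701 and 648 (0.12, interval -0.04 to 0.27). The acyl-CoA dehydrogenase gene on chromosome 3, an enzyme class of fatty acid oxidation, had 181 and 151 (0.26, interval -0.06 to 0.59). The lowest promoter of all 43 was that of a gene on chromosome 2 annotated to chaperone-mediated complex assembly (ENSMUSG00000027305, 119493131 to 119493526). It had 85 Wtap-CKO reads and 111 Wtapflox/flox reads (-0.36, interval -0.81 to 0.04). An inner membrane gene on chromosome 4 had 258 and 291 over 2 peaks (-0.17). The weaker of these peaks (11058504 to 11058824), called in Wtapflox/flox only, had 38 and 52 (-0.40). The X-linked gene with apoptosis and flavoprotein dehydrogenase terms had 273 and 299 (-0.13). For these 3 genes at the low end, the intervals of the summed promoter reads included 0.

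Genes whose products are integral to the membrane had higher ratios than the rest, a split made after the values were seen. The 18 promoters with the GO term for an integral membrane component had a median of 0.21, 15 of them above 0. Intervals lay above 0 for 9 of them (50%) and below for 0, against 13.5% and 23.5% of all genes with a promoter peak. The other 25 complex I promoters had a median of 0.04, with 16 above 0, 2 intervals above 0 (8%) and 1 below (4%). By the authors' RPM the membrane genes had 3 intervals above 0 and 3 below (16.7% each), and the others 0 above and 12 below (48%). Among all genes 4.63% were then above and 49.4% below. Among subunit genes alone the medians were 0.24 for 11 membrane genes and 0.03 for the other 18. The term by itself did not go with higher ratios: all 2816 promoters of genes with it had a median of -0.07, and 312 of other mitochondrial genes with it -0.04. The ranges overlapped, from -0.13 to 0.70 for membrane genes and from -0.36 to 0.47 for the others, and the difference was not tested.

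Some of these genes have several promoter peaks whose ratios had opposite signs. The X-linked gene of the acyltransferase that remodels cardiolipin, the lipid in which complex I is embedded, had 489 Wtap-CKO reads and 427 Wtapflox/flox reads in all (log2 ratio 0.20, interval 0.01 to 0.39). Of its peaks over a start, 1 (73324930 to 73325548) had 199 and 235 reads, a ratio of -0.23 (interval -0.52 to 0.04). The other, 412 bp away (73325961 to 73326803), had 258 and 172 reads, a ratio of 0.57 (interval 0.30 to 0.87). These intervals do not overlap. A membrane subunit gene on chromosome 3 showed the same kind of contrast, with 194 and 240 reads over its start (51316074 to 51316630, -0.30, interval -0.58 to -0.03). A peak 215 bp from a start of that gene (51315512 to 51315872) was called in Wtap-CKO only and had 76 and 41 reads (0.82, interval 0.33 to 1.48). Their sum, 270 and 281 reads, gave -0.05. At the quinone-binding gene on chromosome 1, the main peak had 620 and 634 reads (171074360 to 171075050, -0.03). A peak at -996 bp from another start of the same gene had 75 and 37 (171066093 to 171066355, 0.93, interval 0.44 to 1.63). It was also called in Wtap-CKO only. For this peak and the chromosome 3 peak called in Wtap-CKO only, the calling largely fixes a ratio above 0.

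The other complexes of the respiratory chain did not show higher promoter signal in Wtap-CKO. By GO term, 3 complex II promoters had a median log2 ratio of -0.10, 6 of complex III -0.17, 10 of complex IV -0.08 and 14 of ATP synthase -0.04. Above 0 were 0 of 3, 1 of 6, 3 of 10 and 6 of 14 of these, against 31 of 43 for complex I. Assembly genes of complex III (8) had a median of -0.19 and those of complex IV (15) one of -0.00; the complex IV list shares 2 genes with the complex I list. Intervals lay above 0 for 0, 0, 1 and 1 promoters of complexes II, III and IV and ATP synthase. They lay below 0 for 1, 2, 3 and 2 (33.3%, 33.3%, 30% and 14.3%). Among all genes with a promoter peak, 13.5% had intervals above 0 and 23.5% below. By the authors' RPM those below 0 were 3, 5, 7 and 7, against 49.4% of all genes. None of the genes in these other respiratory chain lists passed 2-fold over the floor. These lists are short, and with 1 library per genotype the difference from complex I was not tested.

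**Figure D3:**
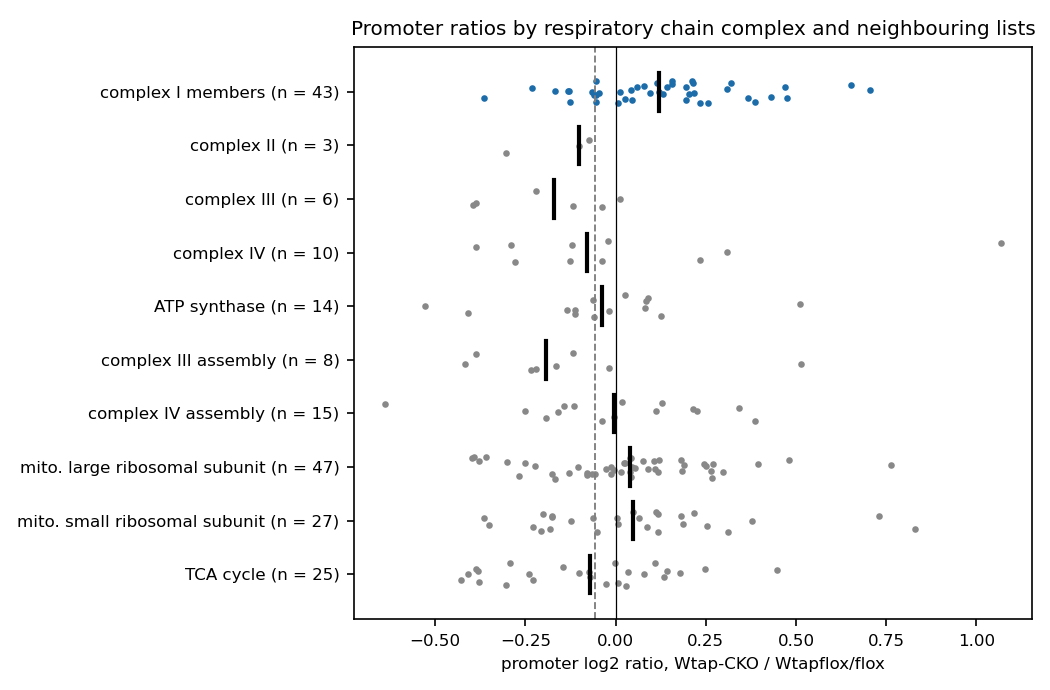
Promoter log2 ratio (Wtap-CKO over Wtapflox/flox) (x axis) for the complex I genes (blue) and for genes of other respiratory chain complexes, mitochondrial ribosomal subunits and the tricarboxylic acid (TCA) cycle (grey), 1 point per gene, spread vertically at random. Thick bars are list medians, the dashed line is the median of all genes (-0.06); the complex I median lies at 0.12, or -0.09 against -0.27 for all genes by the authors' RPM.

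Other mitochondrial lists had medians below the 0.12 of complex I, the ribosomal ones nearer to it than to the -0.06 of all genes. The 47 promoters of the mitochondrial large ribosomal subunit had a median of 0.04 and the 27 of the small one 0.05, and 25 tricarboxylic acid cycle genes one of -0.07. Above 0 were 27 of 47, 16 of 27 and 10 of 25 of these. The 1172 promoters annotated to the mitochondrion outside the complex I list had a median of -0.04. Intervals lay above 0 for 12.6% of these and below 0 for 21.2% (2.6% and 52.0% by the authors' RPM). The 263 of the inner membrane outside it had -0.02. Promoters of 35 genes with the sarcomere term, which marks the contractile apparatus of cardiomyocytes, had a median of -0.17, ran from -0.67 to 0.47, and 9 of 35 were above 0. Their sums were 15293 Wtap-CKO reads and 17052 Wtapflox/flox reads. Their part in the complex I values was not tested.

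The assembly term missed 4 complex I component genes, all with a promoter peak. An iron-sulfur and NADH dehydrogenase subunit gene on chromosome 17 (66408155 to 66409039), also annotated to cardiac muscle tissue development, had 660 Wtap-CKO reads and 541 Wtapflox/flox reads (log2 ratio 0.29, interval 0.12 to 0.46). The flavin mononucleotide-binding subunit gene on chromosome 19 (4062433 to 4063266), which holds the site where NADH gives up its electrons, had 568 and 601 (-0.08, interval -0.25 to 0.09). A gene on chromosome 17 that also carries a mitochondrial ribosome term had 526 and 437 over 2 peaks (0.27, interval 0.08 to 0.46). A gene on chromosome 6 (11906964 to 11907164) annotated to complexes I and IV had 64 and 28 (1.07, interval 0.53 to 1.89), under the floor. The 3 ratios above 0 all had intervals above 0 by reads in peaks, where 13.5% of all genes with a promoter peak had one. By the authors' RPM, 1 of the 4 intervals lay above 0 and 1 below, against 4.63% and 49.4% of all genes.

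Beyond promoters the picture was mixed. The deposited annotation ties each peak to the gene of the closest start, and whether a distal peak acts on that gene was not tested. The 29 peaks farther than 1000 bp from a start were tied to 16 genes in this way. They held few reads, with medians of 38 in Wtap-CKO and 43 in Wtapflox/flox, against 57 and 53 for all such peaks. Called in both libraries were 12 (41.4%, against 55.0% of all such peaks), with 12 called only in Wtapflox/flox (24.2% of all) and 5 only in Wtap-CKO (20.9% of all). All 12 of the former had ratios below 0 and all 5 of the latter ratios above 0, which the calling largely fixes. Summed per gene, the median log2 ratio was 0.03 over the 16 genes and 0.07 over all 22022 genes with such peaks. The interval lay above 0 for 4 of 16 genes and below 0 for 6, against 26.5% and 16.6% of all genes.

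Only 9 of the 16 genes were over the floor for distal sums (5.10 CPM, about 50.2 reads in a library). Of these 0 were 2-fold higher and 0 were 2-fold lower (2.19% and 0.569% of all genes over the floor), and 1 was 1.5-fold higher and 0 lower (9.86% and 4.77%). The 1 past 1.5-fold was a matrix subunit gene on chromosome 1. A peak in the last of its introns (92376044 to 92376375, intron 9 of 9) had 139 Wtap-CKO reads and 80 Wtapflox/flox reads (log2 ratio 0.76, interval 0.39 to 1.22). Its promoter, with 288 and 273 reads, had a ratio of 0.08. A nuclear speck-annotated subunit gene on chromosome 12 had no promoter peak, and its distal sum was 279 and 197 (0.49, interval 0.24 to 0.78). Most of that came from an intergenic peak 66570 bp from its start (102009897 to 102010495, 260 and 168 reads, 0.62). The rest came from a peak in an exon of another gene (101951521 to 101951741, 19 and 29 reads, -0.50). A subunit gene on chromosome 15 had 221 and 178 reads over 2 distal peaks (0.31, interval 0.02 to 0.61). The weaker of them (82246576 to 82246781), called in Wtap-CKO only, had 57 and 31 (0.79). With peaks called in both libraries alone, the ratio of this gene was 0.16. The 2 peaks of a membrane subunit gene on chromosome 3 summed to 234 and 200 (0.22, interval -0.05 to 0.51).

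**Figure D4:**
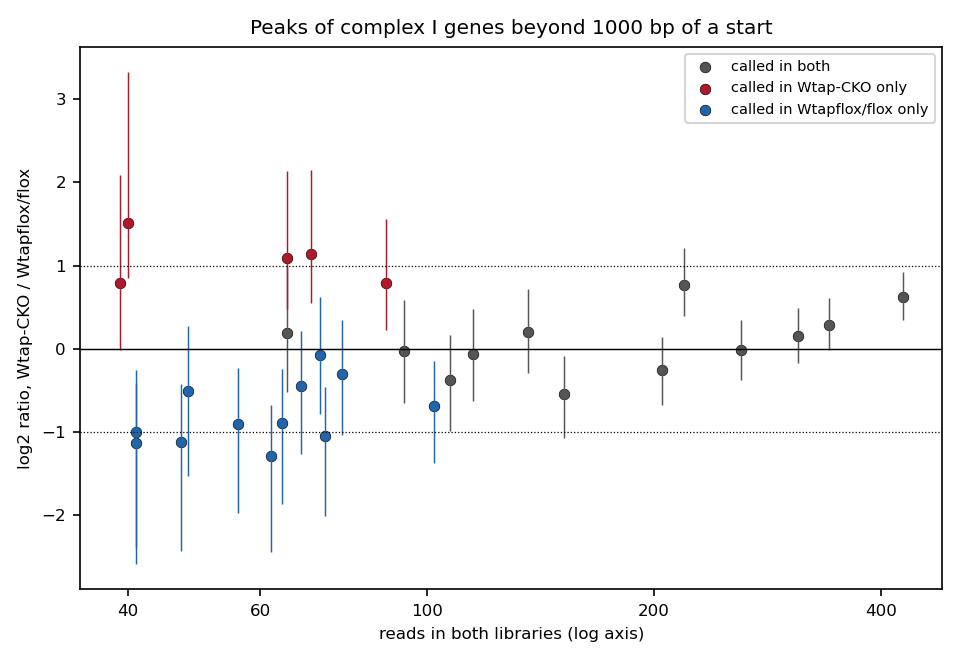
Log2 ratio (Wtap-CKO over Wtapflox/flox) (y axis) against reads in both libraries (x axis, log scale) for the 29 peaks beyond 1000 bp of a start, coloured by the library in which the authors called the peak. Bars are 95% counting intervals and dotted lines mark 2-fold; the peaks called in 1 library lie on that library's side of 0, 1 of them at -0.07, and 5 of their 17 intervals span 0.

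Distal sums over the floor were lowest for a subunit gene on chromosome 13, with 61 Wtap-CKO reads and 91 Wtapflox/flox reads from a peak in intron 2 (114480708 to 114481056; log2 ratio -0.54, interval -1.07 to -0.09). A subunit gene on chromosome 2 with no promoter peak had 169 and 211 over 4 peaks (-0.31, interval -0.62 to -0.02). Its peaks with 22 and 51 reads and with 18 and 38 reads were called in Wtapflox/flox only. With peaks called in both libraries alone, the ratio of this gene was 0.08. The iron-sulfur cluster assembly gene on chromosome 12 had 256 and 307 over 6 intronic peaks (-0.25, interval -0.50 to -0.02). Of these, 5 had ratios below 0. The strongest, in intron 4 (52226176 to 52226650), had 93 and 112 reads (-0.25), and 1 in intron 3 (52173185 to 52173536) had 46 and 61 (-0.37). The lowest, also in intron 3 (52168075 to 52168321), had 16 and 46 (-1.28), and the exception, in intron 8 (52344892 to 52345124), had 32 and 8 (1.52, interval 0.86 to 3.33). These last peaks were called in 1 library each, Wtapflox/flox and Wtap-CKO in turn, and were under the floor for single peaks (3.92 CPM). The single distal peak with the lowest ratio over that floor lay on chromosome 7 (121698524 to 121698733), with 38 and 64 reads (-0.68). It was called in Wtapflox/flox only and lay 1837 bp from the start of a subunit gene with fatty acid synthesis terms. The other distal peak of that gene, called in Wtap-CKO only and under the floor, had 50 and 20 (1.14). The gene on chromosome 2 with an arginine hydroxylation term had 130 and 131 reads in exon 9 (140044453 to 140044958, -0.01). The third gene with no promoter peak, on chromosome 13 and annotated to NADH dehydrogenase (ubiquinone) activity, had 21 and 43 reads (-0.88, interval -1.86 to -0.25), under the floor. They came from a peak called in Wtapflox/flox only.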

How the data were processed

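Each library came from pooled hearts of mice of 1 genotype, grouped by the genotype in the labels. Tools named, with no role, in the submitters' processing notes were MACS2 2.1.0, ChIPseeker, HOMER 4.11, BWA 0.7.12 and fastp 0.20.0, and the build GRCm39. Nothing is said there of a Tn5 shift, of duplicate or mitochondrial reads or of the peak threshold. Duplicates, if kept, narrow the counting intervals too much. Raw read counts per merged peak were deposited by the authors in 1 table. The deposited RPM is the count plus 1, times a constant per library (0.0171 for Wtapflox/flox, 0.01475 for Wtap-CKO), as worked out from the values. The fold enrichment, a ratio in the deposited table, was not used. From that RPM the authors computed their deposited log2 fold change. GO terms were taken from the table; 1784 genes had terms that are not analysed here, so GO lists may be incomplete.

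Counts were summed per gene within and beyond 1000 bp of a start and scaled to CPM by reads in peaks. Exact conditional binomial (Clopper-Pearson) 95% intervals were computed without the added 0.5, with scipy 1.17.1, pandas 2.3.3 and Python 3.11.15. The code was run on counts simulated with counting error alone, where such intervals hold by construction. That run cannot show how they fare with duplicates or differences between pools. Floors were the 25th percentile of mean CPM. With 1 library per genotype no test was run. The members and lists were chosen with earlier results of these data known. The naming rule took the 6 highest and 6 lowest promoters over the floor, the 5 with the most reads, genes past a fold rule, and the 4 highest and 4 lowest distal sums and single peaks over their floors; further members, the membrane split, the sarcomere list and peaks within genes were added after their values were seen. Gene symbols were not assigned, since the reference gene table matched 0 of the IDs, and no sequence is shown for that reason. The cell type marker lists were not used.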

Additional observations from a re-analysis of the deposited data

How the results depend on the processing

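No paired analysis was possible because each genotype has 1 library, which also leaves no replicate to omit. The promoter median of the 43 genes (0.12) moved by more than the counting error of the summed reads under 1 alternative, the authors' RPM (-0.092), where 18 genes turned from above to below 0, and intervals above and below 0 went from 11 and 1 to 3 and 15; its gap to all genes stayed between 0.16 and 0.18. Pseudocounts of 0.1 and 2, centring on all peaks, a 3000 bp window, peaks called in both libraries, the nearest peak alone and each role alone moved it by less; the floor does not enter a median. The distal median (0.03) became -0.19 by the authors' RPM and 0.16 with peaks called in both libraries (9 genes), where its gap to all genes turned from -0.04 to 0.092; with the 3000 bp window that gap was 0.03. Calls were 0 at 2-fold at promoters and distally; at 1.5-fold they were 1 (higher) at promoters and 1 (higher) distally, and with no floor 3 distally, 1 higher and 2 lower. Causes were not tested, apart from fewer peaks or a looser rule by construction. Depth limits distal values most: 7 of 16 distal sums were under the floor.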

Other observations

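Grouped by other GO terms, 6 complex I genes annotated to the response to oxidative stress had nearly equal promoters in both libraries by reads in peaks. They summed to 2848 Wtap-CKO reads and 2870 Wtapflox/flox reads, and their log2 ratios ran from -0.13 to 0.06. By the authors' RPM, 0 of the 6 intervals lay above 0 and 5 below (83.3%), against 4.63% and 49.4% of all genes. The 3 promoters of intermembrane space genes had a median of -0.06. The 4 genes on the X chromosome included the highest promoter ratio of all (0.70) and 1 of the lower ones (-0.13), with 1225 Wtap-CKO reads and 1076 Wtapflox/flox reads in all.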
